A study of Mus musculus with 6 samples.

Results

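The genes described here encode the core of PI3K, AKT and mTOR signalling: the insulin receptor and its adaptors, the subunits of class IA PI3K, AKT and its activating kinase, the phosphatases that oppose them, the TSC-RHEB switch, the mTOR complexes, and the GSK3 and FOXO proteins that AKT controls. They were chosen by gene symbol, with earlier results of these data known. They are 32 genes of the 29018 in the deposited table, and each symbol matched 1 row. All 32 passed the filter on low counts that left 18221 genes for testing, so no member was lost. Their levels were measured by RNA sequencing of polyA RNA from osteoblasts, the bone-forming cells, grown from the skull vault (calvaria) of newborn mice and then induced to differentiate. One group was wild type (WT, 3 libraries) and the other was knockout for NDR1 (KO, 3 libraries), a kinase of the NDR family encoded by Stk38. The strain, the sex, the design of the KO allele and whether the libraries came from separate animals or cultures were not given in the sources used here, so the p-values and intervals rest on differences among these libraries alone, and those may be technical.

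In this pathway an activated receptor recruits PI3K through adaptor proteins, and PI3K makes a membrane lipid that brings AKT and its kinase PDK1 together. AKT then inhibits the TSC complex, which frees RHEB to switch on mTORC1, and it phosphorylates GSK3 and the FOXO transcription factors, which it keeps out of the nucleus. In bone the pathway relays insulin and IGF signals and is known to promote the growth and survival of osteoblasts. Much of this control acts on proteins and lipids by phosphorylation, which mRNA levels do not measure.

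Cell type markers and the knockout were checked first. Total counts were between 61461870 and 76159034 per library, and no member fell below 208 counts in any library. Stk38 stood at 50.3, 47.9 and 52.5 CPM (read counts scaled to library size with TMM factors) in KO and at 73.1, 77.4 and 79.4 CPM in WT. The groups did not overlap, and the log2 change of KO over WT was -0.61 ± 0.05 (SE, edgeR adjusted p = 8.10e-06), so the mRNA was lower but still read. Of 8 osteoblast markers 5 fell and 0 rose, with a median log2 change of -0.48. Alpl (alkaline phosphatase) and Dmp1 fell by 1.19 and 1.18 on the log2 scale, the collagen genes Col1a2 and Col1a1 by 0.51 and 0.46, and Runx2, the factor that commits cells to bone, by 0.23, while Sp7, Ibsp and Bglap were not called. Levels differed widely, from a mean of 23044 CPM in KO and 31683 CPM in WT for Col1a1 to 0.39 and 0.73 CPM for Bglap. Macrophage markers rose in 16 of 18 cases and none fell, with a median log2 change of 1.31, and their summed level was 1078 to 1190 CPM in KO against 424 to 557 CPM in WT. Of 6 osteoclast markers tested 2 fell, Mmp9 by 5.27 and Ctsk by 0.45 on the log2 scale. The 6 summed to 236 to 240 CPM in KO against 455 to 460 CPM in WT. Of 5 endothelial markers 3 fell, of 5 adipocyte markers 5 fell and of 4 skeletal muscle markers 1 fell, and none of these or of the osteoclast markers rose. Adipocyte markers summed to at most 1.19 CPM in KO and 16.8 CPM in WT, endothelial markers to at most 8.06 and 13.7 CPM and skeletal muscle markers to at most 6.37 and 9.56 CPM. Of 6 lymphocyte markers 2 were in the table, and together they did not exceed 0.196 CPM in any library. In libraries of whole cultures, more or fewer cells of a type and more or less RNA per cell cannot be told apart.

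All 32 genes were read in every library of both groups, and most of the differences between KO and WT cultures were small. Of the 32 genes, 7 rose and 10 fell in KO (adjusted p under 0.05 by the Benjamini-Hochberg method over all genes, from the quasi-likelihood test of edgeR), and 15 were not called. The largest increases were in Inpp5d, which encodes the lipid phosphatase SHIP1 (2.27-fold), Pik3cd, the p110δ catalytic subunit (1.53-fold), and Rictor, the defining subunit of mTORC2 (1.48-fold). The largest called decrease was in Tsc2, which encodes the mTORC1 inhibitor tuberin, which fell by 23.3%. Over all genes tested, 11.2% were called higher and 11.7% lower, 22.9% in either direction, against 53.1% of the members. Because the members were chosen with earlier results of these data known, these shares are no independent test of the set. Among the 11079 tested genes whose mean CPM lay within the members' range, 4.55 to 353 CPM, 29.3% were called. The members' median log2 change was -0.02, and over all genes tested it was 0.00. The median size of change regardless of sign was 0.17 for the members, 0.17 for all genes tested and 0.11 for the genes within the members' CPM range. Only Inpp5d and Pik3cd among the members differed by at least 1.5-fold, 6.25% of them against 17.8% of all genes tested and 6.85% of those within the members' CPM range. The CPM values of KO and WT did not overlap for 20 of the 32 members and for 6967 (38.2%) of the 18221 genes tested. Within the members' CPM range they did not overlap for 4985 of the 11079 genes.

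**Figure D1:**
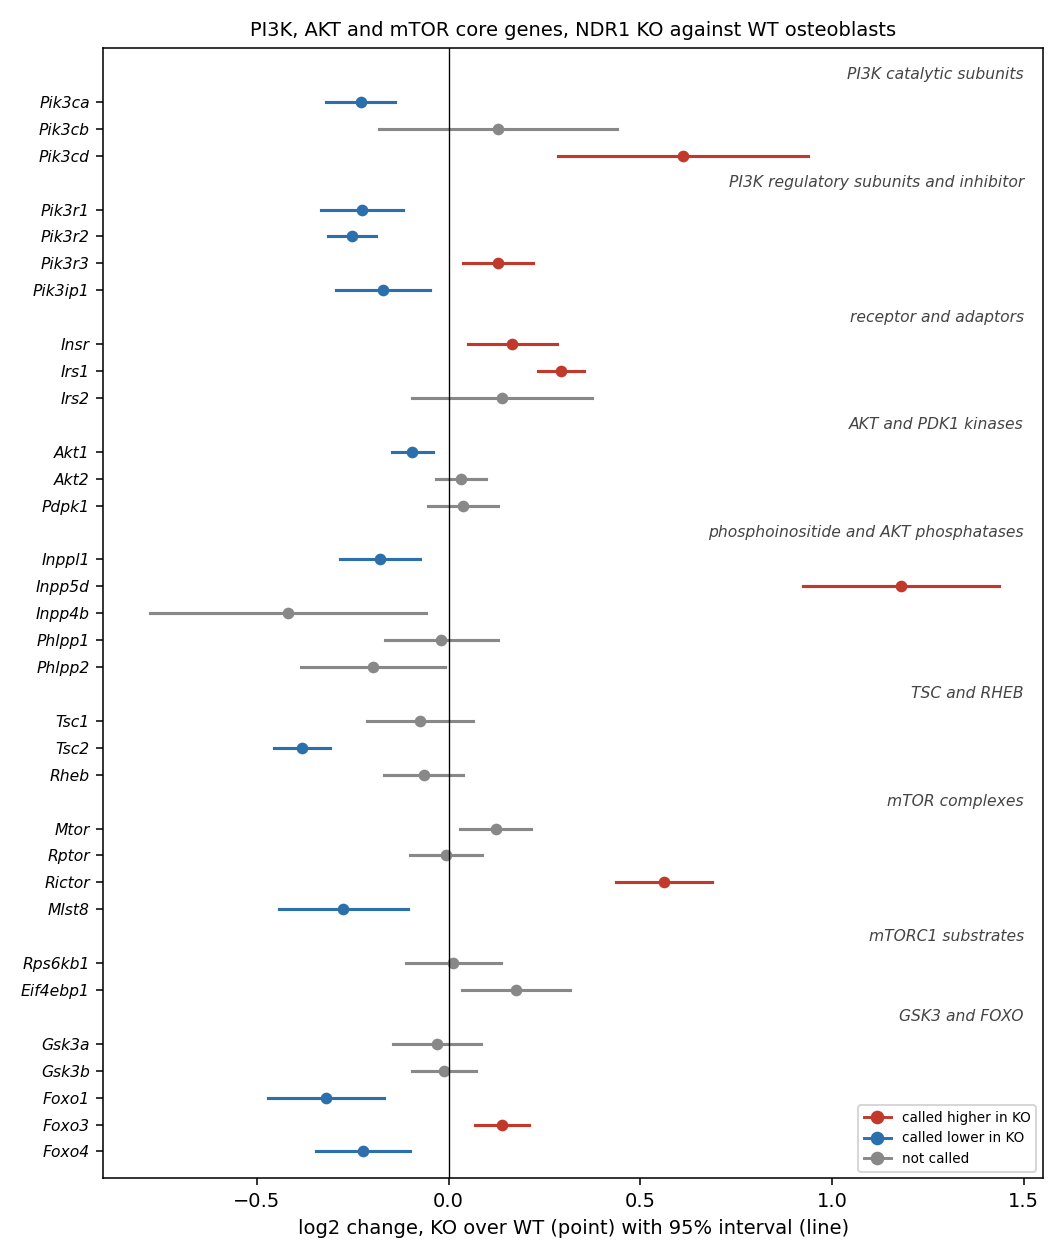
Log2 change of KO over WT for each of the 32 genes, with its 95% interval from edgeR, grouped by role. Red genes were called higher, blue genes lower and grey genes not called. Inpp5d stands farthest from 0, at 1.18, and most other genes lie within 0.4 of no change.

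**Figure D2:**
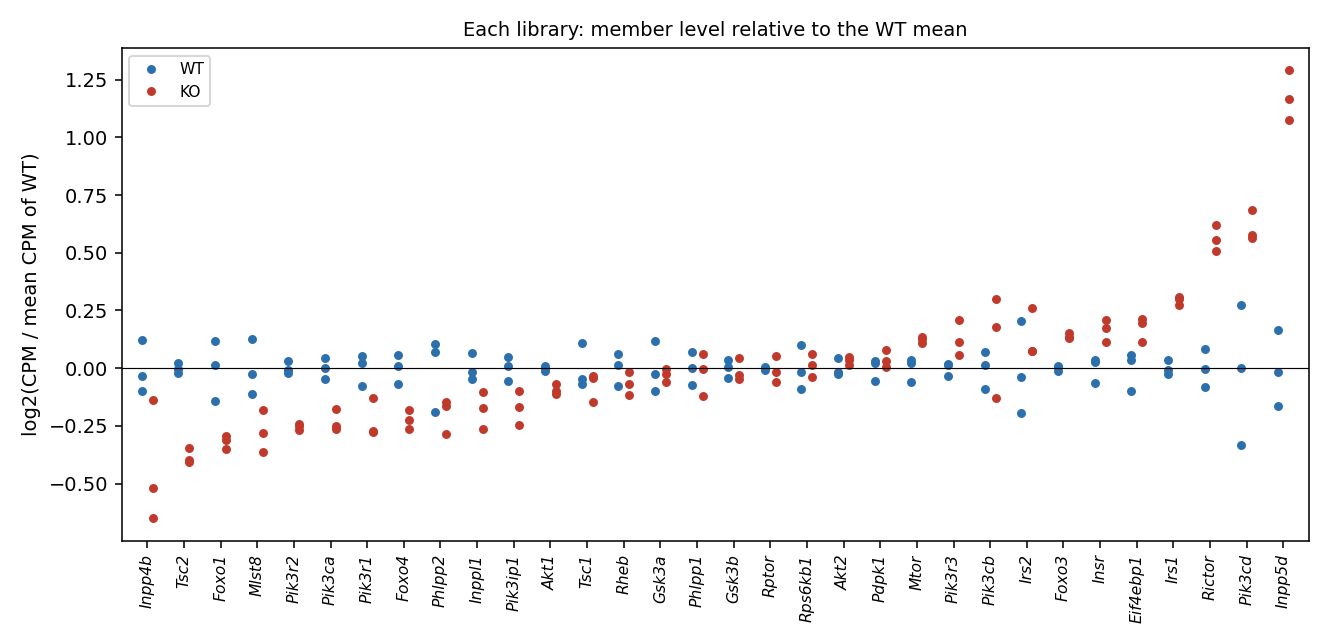
The level of each gene in each of the 6 libraries, as log2 of CPM relative to the mean of the 3 WT libraries, ordered by the log2 change. At both ends of the order the red KO points and the blue WT points are separate, and in the middle they mix.

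The balance of higher and lower calls moved with the processing, among the members as among all genes. TMM scaling gave 7 higher and 10 lower, so 41.2% of the called members were higher. Library totals without TMM, which moved the median log2 change of all genes by 0.0484, gave 9 higher and 6 lower (60%), and limma on the deposited FPKM, which are scaled to totals, gave 9 higher and 5 lower (64.3%). Without a filter on low FPKM limma gave 6 higher and 3 lower (66.7%). Of these settings, library totals changed the scaling alone, whereas the limma fits also changed the model, the measure and the filter. Over all genes tested, the same settings gave 2048 higher and 2131 lower with TMM, 2769 and 1629 on library totals, 2289 and 1267 in limma, and 2062 and 1246 in limma without a filter. Direction and call held under all 14 alternatives for 7 genes: Pik3ca, Pik3r2, Irs1, Inpp5d, Tsc2, Rictor and Foxo3. None of the 17 called members changed direction under any of these alternatives.

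At the top of the pathway, the insulin receptor and 1 of its adaptors rose. Irs1, the adaptor that couples the insulin and IGF1 receptors to PI3K (chromosome 1, 82210822 to 82269137, as deposited, on a mouse build the sources used here do not settle), stood at 263, 268 and 270.1 CPM in KO and at 216, 214 and 223 CPM in WT. All 3 KO libraries were above all 3 WT libraries, and the log2 change was 0.29 ± 0.03 (SE, edgeR adjusted p = 2.28e-05), an increase of 22.6%. Insr, the insulin receptor, stood at 42.0, 39.3 and 41.0 CPM in KO and at 37.1, 34.7 and 37.2 CPM in WT. Its groups did not overlap either, but the change was smaller, 0.17 ± 0.05 (edgeR adjusted p = 0.0439), and the call was lost in edgeR without any 1 library except KO replicate 2 (adjusted p = 0.0692 to 0.157) and with a replicate block (adjusted p = 0.0568). Irs2, the second widely expressed adaptor, ranged from 14.7 to 16.8 CPM in KO and from 12.2 to 16.1 CPM in WT. The groups overlapped, it was not called (edgeR adjusted p = 0.418), and the 95% interval of its log2 change ran from -0.10 to 0.37, which includes the size of the change in Irs1. On the per-length scale (FPKM, the authors' fragment counts scaled to transcript length and library size), Irs1 made up 92.3% ± 0.521 (SD, n = 3) of the summed FPKM of both adaptors in KO and 91.5% ± 0.967 in WT. Together they reached 30.3 ± 0.415 FPKM in the KO libraries and 24.1 ± 0.723 FPKM in the WT libraries (SD, n = 3; exact two-sided permutation test, p = 0.1, the smallest this design allows).

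The adaptor genes also share a stretch of promoter sequence, shown here because Irs1 had the largest change of the receptor and adaptor genes. RefSeq promoter windows on GRCm38.p6, from 250 bases before to 50 bases after a gene's start, were found for 29 of the 32 members, 40 windows in all. These coordinates are on another build than the deposited ones and are not to be compared with them. Both strands were searched for the E-box word CACGTG and the forkhead word GTAAACA. The 250 bases before the start of Irs1 (minus strand, chr1:82291440-82291689) and Irs2 (minus strand, chr8:11008930-11009179) each hold 1 E-box, in capitals.
Irs1: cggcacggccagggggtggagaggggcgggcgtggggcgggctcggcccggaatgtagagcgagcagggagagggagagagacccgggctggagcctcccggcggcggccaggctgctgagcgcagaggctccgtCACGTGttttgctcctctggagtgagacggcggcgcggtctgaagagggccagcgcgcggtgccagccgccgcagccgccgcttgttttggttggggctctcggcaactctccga
Irs2: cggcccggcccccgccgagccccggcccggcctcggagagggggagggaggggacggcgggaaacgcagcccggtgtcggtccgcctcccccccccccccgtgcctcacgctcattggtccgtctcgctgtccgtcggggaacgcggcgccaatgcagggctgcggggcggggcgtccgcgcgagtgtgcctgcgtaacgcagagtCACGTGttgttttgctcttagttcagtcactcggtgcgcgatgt

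The E-box starts 115 bases before the start of Irs1 and 44 bases before that of Irs2. The longest run of letters the Irs1 and Irs2 windows share, GTCACGTGTT, has 10 bases, includes the E-box, and is held by 25 of 32851 windows. The window of Irs4, a further adaptor gene that is no member, is also among those 25, and it shares a run of 17 bases with that of Irs2, GTCACGTGTTGTTTTGC, which no other window holds (minus strand, chrX:141725346-141725391).
Irs4: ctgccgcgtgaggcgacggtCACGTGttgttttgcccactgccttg
Among the members, Rheb, which was not called (minus strand, chr5:24842432-24842477), is the only other gene with the E-box, and Akt1 (minus strand, chr12:112675019-112675065) the only one with the forkhead word, there on the opposite strand.
Rheb: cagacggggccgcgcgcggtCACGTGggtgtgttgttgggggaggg
Akt1: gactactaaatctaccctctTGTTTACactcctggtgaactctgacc

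The E-box occurred in 7.5% of the members' windows and in 7.15% of all windows, and the forkhead word in 2.5% and 3.65%. These shares are not matched for base content. The median share of G and C bases was 60.8% in the members' windows and 52.7% in all windows. The median number of CG pairs was 20.5 and 7. The shared runs were found by looking at these windows after the values were seen. They are matches of letters, with no measurement of binding.

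Among the catalytic subunits of PI3K, the p110α gene fell and the p110δ gene rose. Pik3ca, the ubiquitous p110α (chromosome 3, 32451820 to 32522635 in the deposited coordinates), stood at 66.8, 66.3 and 70.4 CPM in KO and at 79.5, 82.1 and 77.1 CPM in WT. Every KO library was below every WT library, and the log2 change was -0.23 ± 0.04 (SE, edgeR adjusted p = 0.00213). Pik3cd, whose p110δ is known chiefly from white blood cells, stood at 8.53, 8.61 and 9.28 CPM in KO and at 5.76, 4.57 and 6.96 CPM in WT. The groups did not overlap, although the WT libraries spread widely, and the log2 change was 0.61 ± 0.15 (edgeR adjusted p = 0.0125). In limma on log2(FPKM + 1) without a filter on low values its change was 0.35 and the call was lost (adjusted p = 0.0609). Pik3cb, the p110β gene, was the least abundant of the 3 in FPKM in KO and in WT, ranged from 4.83 to 6.50 CPM in KO and from 4.95 to 5.54 CPM in WT, and was not called (edgeR adjusted p = 0.585, 95% interval of the log2 change -0.18 to 0.44). In FPKM, Pik3ca made up 77.2% ± 0.852 (SD, n = 3) of the catalytic sum in KO and 84.1% ± 1.85 in WT, and Pik3cd 14.5% ± 0.228 and 8.83% ± 1.9. The catalytic genes summed to 9.26 ± 0.330 FPKM in KO libraries and 9.63 ± 0.113 FPKM in WT libraries (exact two-sided permutation test, p = 0.3).

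The regulatory subunits moved in both directions. Pik3r2, which encodes p85β and was the most abundant of the 3 in FPKM, stood at 145, 148 and 147 CPM in KO and at 178, 172 and 174 CPM in WT. The groups were well separated, with a log2 change of -0.25 ± 0.03 (SE, edgeR adjusted p = 8.92e-05). Pik3r1, the p85α gene, stood at 137, 123 and 124 CPM in KO and at 152, 141 and 155 CPM in WT. It fell by 0.23 ± 0.05 on the log2 scale (edgeR adjusted p = 0.00656), but its FPKM values overlapped between the groups, and limma on log2(FPKM + 1) did not call it (adjusted p = 0.0540). Pik3r3, which encodes p55γ, stood at 117, 130.4 and 122 CPM in KO and at 110.2, 114 and 114 CPM in WT. It was higher in every KO library, by 0.13 ± 0.04 (edgeR adjusted p = 0.0470), but the call was lost in edgeR without any 1 library except KO replicate 1 (adjusted p = 0.0816 to 0.152). In FPKM, Pik3r2 made up 49.4% ± 0.459 (SD, n = 3) of the regulatory sum in KO and 53.7% ± 0.679 in WT, and Pik3r3 32.7% ± 1.33 and 27.3% ± 0.785. Pik3ip1, a membrane protein that inhibits PI3K, ranged from 35.1 to 38.8 CPM in KO and from 40.0 to 42.9 CPM in WT. Its log2 change of -0.17 ± 0.05 only just passed (edgeR adjusted p = 0.0489). The call was lost in edgeR without any 1 library except KO replicate 2 (adjusted p = 0.0568 to 0.153), with a replicate block (adjusted p = 0.0564) and in DESeq2 (adjusted p = 0.0542).

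**Figure D3:**
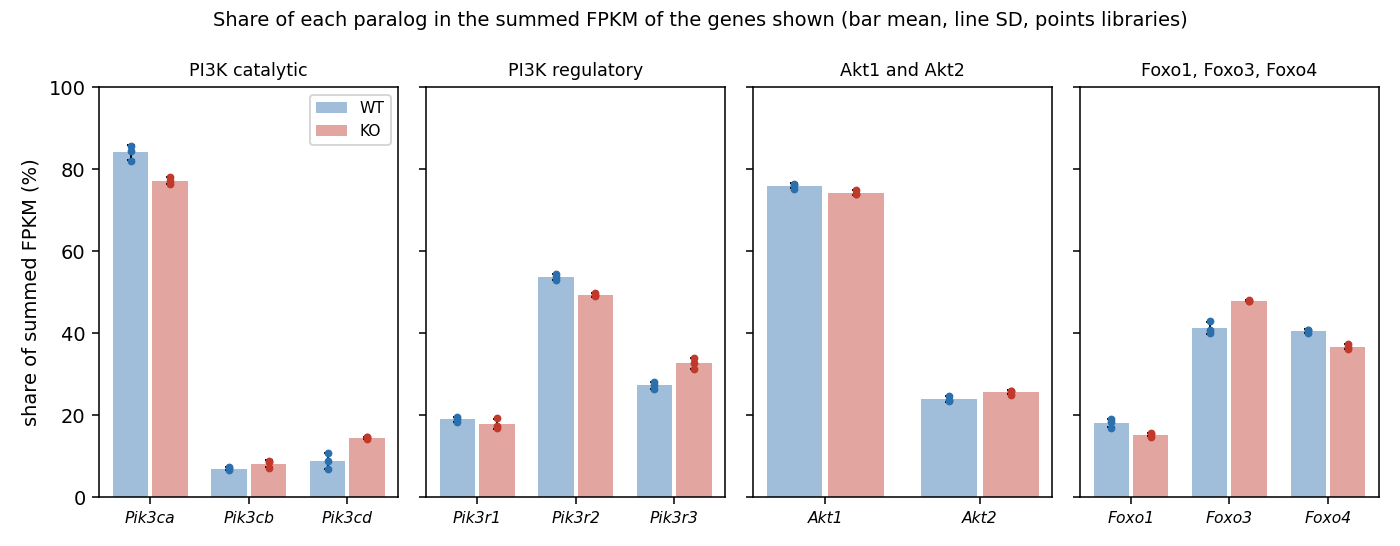
Share of each gene, in percent, in the summed FPKM of the genes shown in its panel (bars, mean; lines, SD; points, the 3 libraries of each group). Pik3cd, Pik3r3 and Foxo3 took larger shares in KO and Pik3ca, Pik3r2, Foxo1 and Foxo4 smaller ones.

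The phosphatase Inpp5d had the largest change of all members, and it moved beside macrophage markers. SHIP1, its product, removes a phosphate from the lipid made by PI3K and is known chiefly from blood cells. Inpp5d (chromosome 1, 87548034 to 87648229 in the deposited coordinates) stood at 12.4, 11.4 and 10.6 CPM in KO and at 5.67, 4.51 and 4.99 CPM in WT. The groups were far apart, and the log2 change was 1.18 ± 0.11 (SE, edgeR adjusted p = 3.61e-05). On the log2(FPKM + 1) scale, which understates the change of low genes, it was 0.60. Relative to the summed CPM of the 18 macrophage markers, Inpp5d was 1.06%, 0.956% and 0.988% in KO and 1.04%, 1.06% and 0.897% in WT, so on that scale the groups overlapped. Most of that sum was 1 marker, Lyz2, with a mean of 730 CPM in KO and 336 CPM in WT. Lyz2 rose by 1.12 on the log2 scale, less than the markers' median of 1.31, so the percentages mainly compare Inpp5d with Lyz2. Pik3cd was 0.730%, 0.724% and 0.861% of the same sum in KO and 1.06%, 1.08% and 1.25% in WT, and there its KO values lay below those of WT. The leukocyte marker Ptprc and the macrophage markers Csf1r and Adgre1 rose by 1.37 ± 0.15, 1.09 ± 0.12 and 1.05 ± 0.11 on the log2 scale. The part of these cells in the levels of Inpp5d and Pik3cd was not tested.

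**Figure D4:**
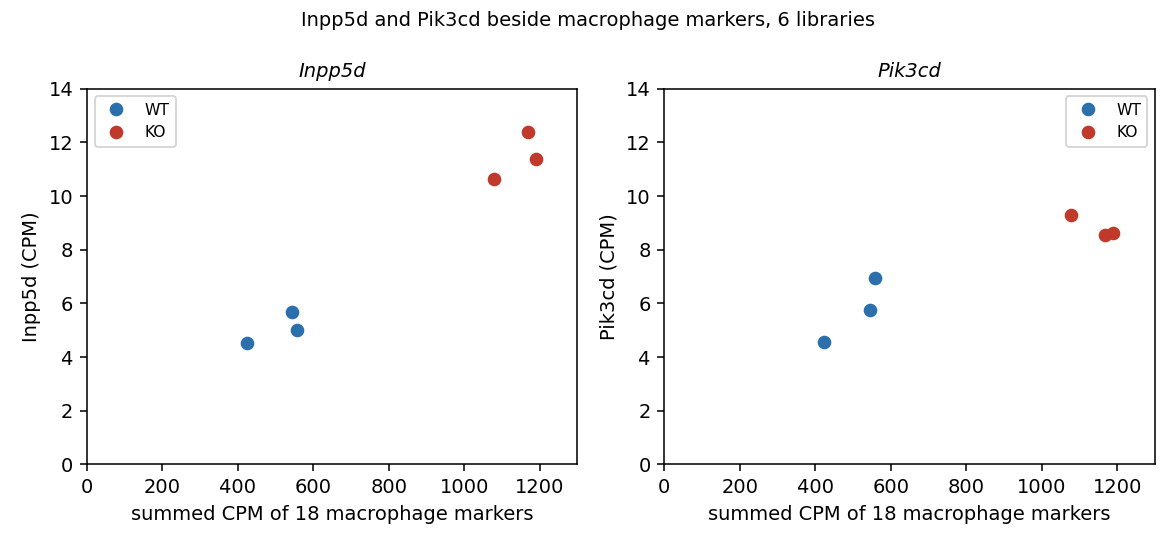
CPM of Inpp5d (left) and Pik3cd (right) against the summed CPM of 18 macrophage markers, most of it from Lyz2, 1 point per library. The 3 KO libraries lie at 1078 to 1190 on the marker axis and the 3 WT libraries at 424 to 557, and both genes are higher in the KO libraries.

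The 250 bases before the start of Inpp5d (plus strand, chr1:87620062-87620311) hold the word GAGGAAGT, the core bound by the myeloid factor PU.1 and other ETS factors, 20 bases before the start, in capitals.
Inpp5d: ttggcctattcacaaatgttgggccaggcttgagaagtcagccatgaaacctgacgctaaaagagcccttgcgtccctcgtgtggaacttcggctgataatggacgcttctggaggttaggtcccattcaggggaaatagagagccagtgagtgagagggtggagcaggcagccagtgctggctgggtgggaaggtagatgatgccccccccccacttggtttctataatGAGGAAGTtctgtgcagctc
The sequence is shown because this gene changed most. The word was chosen after the window was seen, and it occurs in 3.2% of all windows on either strand and in no other member's window. Spi1, the gene of PU.1, stood at 7.40 ± 0.745 CPM in KO and 3.63 ± 0.743 CPM in WT (SD, n = 3), a log2 change of 1.03 ± 0.17 (edgeR adjusted p = 0.00124). Spi1 is itself 1 of the 18 macrophage markers. The word is a match of letters, and binding of PU.1 or its control of Inpp5d was not tested.

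The other phosphatases changed less. Inppl1, which encodes SHIP2, the SHIP enzyme of most tissues, stood at 93.4, 88.8 and 83.4 CPM in KO and at 99.0, 96.9 and 104.7 CPM in WT. It fell by 0.18 ± 0.05 on the log2 scale (SE, edgeR adjusted p = 0.0201), opposite to Inpp5d, but lost its call in edgeR without KO replicate 2 or 3 or WT replicate 1 or 3 (adjusted p = 0.0505 to 0.0890) and on library totals without TMM (adjusted p = 0.0816). Inpp4b, which acts on the next lipid in the series, was the least abundant member in FPKM, at 4.73, 3.32 and 3.63 CPM in KO and 5.67, 5.09 and 4.86 CPM in WT. All KO libraries were below all WT libraries, yet the change of -0.42 ± 0.16 was not called (edgeR adjusted p = 0.0959), and without KO replicate 1, the highest of its group, it was -0.58 (adjusted p = 0.0309). Of the phosphatases that remove a phosphate from AKT, Phlpp1 was not called, with a 95% interval of -0.17 to 0.13. Phlpp2 was not called either (-0.20 ± 0.08, edgeR adjusted p = 0.131), although without WT replicate 1, its lowest WT library, it was -0.28 (adjusted p = 0.0228).

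AKT itself hardly differed. Akt1, the most abundant member in FPKM, stood at 340.4, 348 and 338 CPM in KO and at 362, 365 and 368 CPM in WT, so its level fell by 6.33%. The KO libraries were below the WT libraries in CPM, but in FPKM the groups overlapped, and limma on log2(FPKM + 1) gave a log2 change of -0.04 (adjusted p = 0.226) against -0.09 ± 0.02 in edgeR (SE, adjusted p = 0.0164). In edgeR the call also failed when WT replicate 3 or either of KO replicates 1 and 3 was left out (adjusted p = 0.0597 to 0.0645). Akt2, the isoform most linked to insulin action, ranged from 203 to 208 CPM in KO and from 197 to 207 CPM in WT, and the 95% interval of its log2 change was -0.03 to 0.10. Pdpk1, which encodes PDK1, the kinase that activates AKT, was likewise not called (0.04 ± 0.04, 95% interval -0.05 to 0.13). The summed FPKM of Akt1 and Akt2 was 107.5 ± 1.68 in KO and 108.5 ± 0.142 in WT (exact two-sided permutation test, p = 0.4).

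Of the switch upstream of mTORC1, only Tsc2 was called. Tsc2 (chromosome 17, 24814790 to 24851603 in the deposited coordinates), whose product tuberin holds RHEB off, stood at 80.2, 80.7 and 83.6 CPM in KO and at 108, 106 and 104.8 CPM in WT. The groups were separated by more than 20 CPM, and the log2 change was -0.38 ± 0.03 (SE, edgeR adjusted p = 1.42e-05). Tsc1, which encodes its partner hamartin, overlapped between the groups (32.8 to 35.5 CPM in KO, 34.6 to 39.2 CPM in WT) and was not called (95% interval -0.21 to 0.06). Rheb, the small GTPase that tuberin restrains, was not called (95% interval -0.17 to 0.04). Tsc2, Mlst8 and Pdpk1 lie on chromosome 17 at 4.38, 4.51 and 4.88 Mb from Stk38, the knocked-out gene. Of the 246 other tested genes within 5 Mb of Stk38, 26.0% were called. The share was 23.2% from 5 to 10 Mb, 25.7% on the rest of chromosome 17 and 22.8% on all other chromosomes. The 5 Mb window was chosen after the positions were seen.

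The mTOR complexes differed in their defining subunits. Rictor, the scaffold of mTORC2, the complex that phosphorylates AKT (chromosome 15, 6737860 to 6810115 in the deposited coordinates), stood at 47.1, 48.6 and 50.8 CPM in KO and at 33.0, 31.3 and 35.1 CPM in WT. No KO library came near a WT library, and the log2 change was 0.56 ± 0.06 (SE, edgeR adjusted p = 4.64e-05). Rptor, the scaffold of mTORC1, ranged from 57.2 to 62.0 CPM in KO and from 59.3 to 59.9 CPM in WT. It was not called, with a log2 change of -0.01 and a 95% interval of -0.10 to 0.09 that does not reach the lower bound for Rictor, 0.44. Mtor, the kinase of both complexes, stood at 59.2, 60.3 and 59.8 CPM in KO and at 55.8, 56.2 and 52.7 CPM in WT. Its groups did not overlap, but 0.12 ± 0.04 was not called (edgeR adjusted p = 0.0588). Mtor was called under 4 of 14 alternatives. These were edgeR on library totals without TMM (0.17, adjusted p = 0.0135) and the limma fits (adjusted p = 0.0303 to 0.0461). Mlst8, a subunit of both complexes, ranged from 21.0 to 23.8 CPM in KO and from 25.1 to 29.5 CPM in WT. It fell by 0.27 ± 0.08 (edgeR adjusted p = 0.0249) and lost its call in edgeR without KO replicate 1 or 3 or WT replicate 2 or 3 (adjusted p = 0.0545 to 0.0989) and on library totals without TMM (adjusted p = 0.0567).

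Neither substrate of mTORC1 among the members was called. Rps6kb1, the S6 kinase gene, was at 0.01 ± 0.06 (SE, 95% interval -0.11 to 0.14). Eif4ebp1, whose product holds back translation until mTORC1 phosphorylates it, stood at 27.9, 26.3 and 28.2 CPM in KO and at 25.3, 25.0 and 22.7 CPM in WT. These groups did not overlap, but its change of 0.18 ± 0.06 was not called (edgeR adjusted p = 0.0738). Eif4ebp1 was called under 4 of 14 alternatives. These were edgeR on library totals without TMM (0.22, adjusted p = 0.0265) and the limma fits (adjusted p = 0.0169 to 0.0473).

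The FOXO genes moved in opposite directions, while the GSK3 genes were not called. Foxo3 stood at 83.1, 84.4 and 83.5 CPM in KO and at 76.3, 75.2 and 76.4 CPM in WT. The libraries of each group lay close together, and it rose by 0.14 ± 0.03 (SE, edgeR adjusted p = 0.00940). Foxo1, a FOXO factor with known roles in osteoblasts, stood at 31.1, 30.0 and 30.7 CPM in KO and at 34.6, 38.5 and 41.5 CPM in WT. It fell by 0.32 ± 0.07 (edgeR adjusted p = 0.00635), and in limma on log2(FPKM + 1) without a filter on low values its change was -0.21 and the call was lost (adjusted p = 0.0947). Foxo4, on the X chromosome, stood at 28.7, 30.3 and 29.5 CPM in KO and at 32.8, 34.6 and 35.9 CPM in WT, a log2 change of -0.22 ± 0.05 (edgeR adjusted p = 0.0143). Without KO replicate 1 or WT replicate 3 the call was lost (adjusted p = 0.0645 and 0.0631). In FPKM, Foxo3 made up 47.9% ± 0.168 (SD, n = 3) of the sum of these 3 genes in KO and 41.3% ± 1.46 in WT, and they summed to 22.1 ± 0.303 FPKM in KO libraries and 22.5 ± 0.799 FPKM in WT libraries (exact two-sided permutation test, p = 0.6). Gsk3a and Gsk3b, the kinases that AKT inhibits, had 95% intervals of -0.14 to 0.09 and -0.09 to 0.07.

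Ratios between members within a library do not depend on how libraries are scaled. For 9 of 13 ratios of paralogs or partners, the KO and WT values did not overlap. Each of the 9 had p = 0.1 in an exact two-sided permutation test, the smallest that 3 against 3 libraries allow, and an adjusted p = 0.144 over the 13 (Benjamini-Hochberg), so none passed. For single genes tested, FPKM values did not overlap in 39.5%, and no such share was computed for ratios of other genes.

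The ratio of Rictor to Rptor in FPKM was 0.655, 0.656 and 0.653 in KO and 0.438, 0.416 and 0.470 in WT. The KO libraries were almost identical, and the ratio was 1.48-fold higher in KO. The ratio of Tsc2 to Tsc1 was 2.80, 3.02 and 2.90 in KO and 3.39, 3.77 and 3.67 in WT, 1.24-fold lower in KO. Foxo1 to Foxo3 was 0.327, 0.310 and 0.322 in KO and 0.396, 0.448 and 0.475 in WT, 1.37-fold lower. Inpp5d to Inppl1 showed the largest difference, 0.109 ± 0.00244 in KO and 0.0421 ± 0.00498 in WT (SD, n = 3), 2.59-fold higher in KO. Akt2 to Akt1 was the smallest of the 9, at 0.345 ± 0.00912 in KO and 0.316 ± 0.0113 in WT. The ratios of Pik3r1 to Pik3r2, Gsk3b to Gsk3a, Phlpp2 to Phlpp1 and Irs2 to Irs1 overlapped between the groups (exact permutation p = 0.7, 0.9, 0.2 and 0.2).

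**Figure D5:**
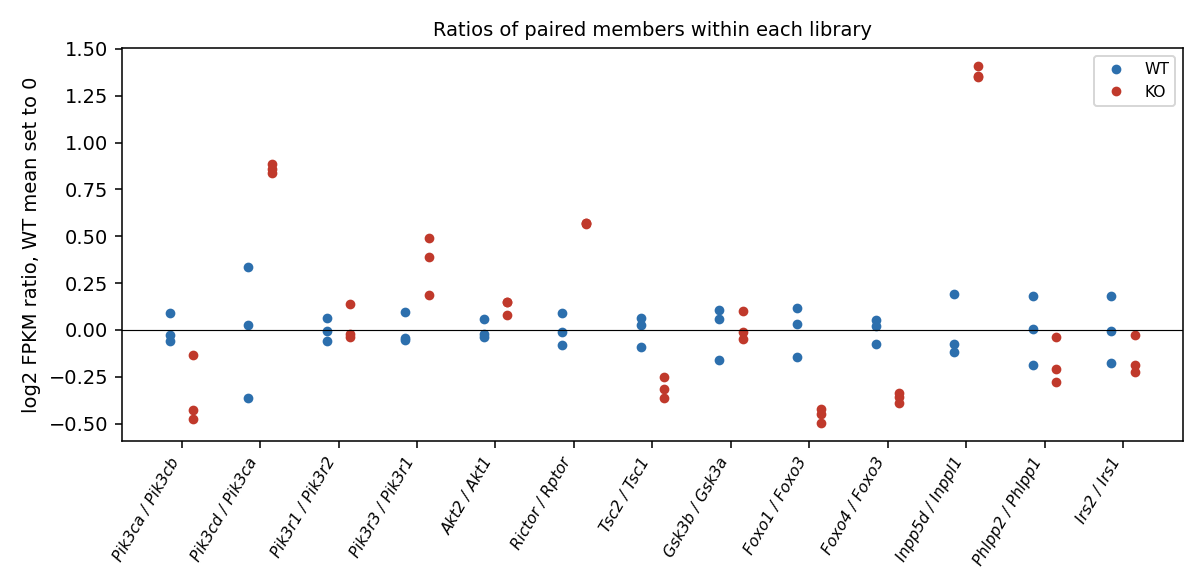
Log2 ratio of the FPKM of each pair of genes in each library, with the mean of the 3 WT libraries set to 0. The points of KO and WT are separate for 9 of the 13 pairs, most widely for Inpp5d to Inppl1.

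Genes around the core were counted from 4 lists that leave out the members and were also chosen with earlier results of these data known. Of 19 other PI3K subunits and phosphoinositide phosphatases tested, 6 rose and 2 fell, with a median log2 change of 0.01. The share called was 42.1%, against 22.9% of all genes tested and 29.3% of those within the members' CPM range. The p110γ gene Pik3cg (8.19, 6.73 and 8.10 CPM in KO, 4.07, 3.37 and 3.0 CPM in WT), its regulatory subunit Pik3r5 (4.26 ± 0.990 against 1.79 ± 0.271 CPM; SD, n = 3) and the immune adaptor Pik3ap1 (11 ± 1.66 against 4.12 ± 0.376 CPM) rose by 1.14 ± 0.15, 1.25 ± 0.21 and 1.42 ± 0.14. All of them are known chiefly from immune cells. The macrophage markers rose as well, and the part of these cells in the levels of Pik3cg, Pik3r5 and Pik3ap1 was not tested. Mtm1, Inpp4a and Ocrl were also called higher, by 0.58 ± 0.12, 0.32 ± 0.08 and 0.12 ± 0.04. Pik3c2b, a class II PI3K, and Synj2, a synaptojanin, fell by 1.15 ± 0.16 and 0.71 ± 0.08.

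Of 27 other mTOR complex subunits and substrates tested, 3 rose and 7 fell, with a median of -0.02. The share called was 37%, against 22.9% of all genes tested and 29.3% of those within the members' CPM range. Deptor, the inhibitory subunit of both mTOR complexes, stood at 23.5, 21.2 and 21.2 CPM in KO and at 49.5, 44.2 and 46.7 CPM in WT. Its KO libraries were at less than 24 CPM and its WT libraries above 44 CPM, a log2 change of -1.09 ± 0.06 (SE, edgeR adjusted p = 9.55e-07) larger than that of any member but Inpp5d. The translation repressor Eif4ebp2 fell by 0.28 ± 0.03 and the elongation factor kinase Eef2k by 0.35 ± 0.04, while Lpin1, a lipid phosphatase that mTORC1 phosphorylates, rose by 0.39 ± 0.05.

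Of 31 genes of the amino-acid and lysosome arm that brings mTORC1 to the lysosome, 3 rose and 5 fell, with a median of 0.00. The share called, 25.8%, lay between the 22.9% of all genes tested and the 29.3% of those within the members' CPM range. The stress-induced brakes Sesn2 and Sesn1 went opposite ways, at 0.57 ± 0.05 and -0.50 ± 0.05, and the folliculin gene Flcn fell by 0.34 ± 0.07. The arginine sensor gene Castor1 rose by 0.43 ± 0.08, and its homolog Castor2 fell by 0.35 ± 0.06. Of 28 insulin receptor adaptors and brakes, 6 rose and 3 fell, with a median of 0.09, and library totals without TMM called 12 higher. The share called, 32.1%, was near the 29.3% of genes within the members' CPM range and above the 22.9% of all genes tested. Neither list is confined to that CPM range. Socs3, a feedback inhibitor of cytokine and insulin signalling, rose from 27.2 ± 2.18 to 74.0 ± 0.939 CPM (1.44 ± 0.06). Grb14, which inhibits the insulin receptor, Ddit4, a stress-induced inhibitor of mTORC1, and Igf1r, the IGF1 receptor, rose by 0.57 ± 0.05, 0.55 ± 0.06 and 0.31 ± 0.04.

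By the table's own KEGG annotation, again without the members, 61 of 278 tested genes of the PI3K-Akt pathway rose and 57 fell. Of the mTOR pathway 16 of 122 rose and 28 fell, of the insulin pathway 17 of 104 rose and 15 fell, and of the FoxO pathway 22 of 103 rose and 18 fell. The shares called in these pathways were 42.4%, 36.1%, 30.8% and 38.8%, against 22.9% of all genes tested. Among genes within the members' CPM range 29.3% were called, and the share of the insulin pathway was near that. The pathways were not limited to that range. The 299 genes annotated to the PI3K-Akt pathway summed to 125690 to 130560 CPM in KO and 134600 to 137650 CPM in WT. Very abundant genes are thus among them, and 29.3% is no matched share for that pathway. The medians of the 4 pathways lay between -0.03 and 0.01. KEGG pathways share genes, so the counts are not independent of each other.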

How the data were processed

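The 6 libraries of polyA RNA, 3 NDR1 KO and 3 WT, were grouped by their titles, and columns were matched by library name. The deposited table gives counts per gene for each library, as whole numbers per the file headers, and FPKM computed by the authors. The submitters' processing notes name cutadapt 1.9, HISAT2 2.0.4 and StringTie 1.3.4d, and a human genome build although the identifiers are of mouse. The counting method, its strand setting and the annotation were not given in the sources used here, so reads shared with copies or overlapping genes could affect single genes. Counts were tested with edgeR 4.0.16 (TMM, filterByExpr, quasi-likelihood, two-sided, no covariate, Benjamini-Hochberg over 18221 genes) under R 4.3.3. Alternatives used DESeq2 1.42.0, limma 3.58.1 on the FPKM, other scalings and filters, a replicate block, and each library left out in turn. Each SE was obtained by dividing the size of the log2 change by the root of the F statistic, and intervals are 95%. The common biological coefficient of variation was 12.6%. Ratios and family sums of FPKM were tested by exact permutation. Named genes were Stk38, all members, up to 4 genes of lowest p per pathway list and list-defining markers. Pik3r5, Mtm1, Inpp4a, Ocrl, Castor1, Spi1, Irs4, Ibsp and Bglap were named after their values or sequences were seen. Members and lists were chosen with earlier results of these data known.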

Additional observations from a re-analysis of the deposited data

How the results depend on the processing

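Over 14 alternatives, 0 of the 17 called members changed direction, 7 kept their call throughout and 10 lost it at least once, 7 of them without 1 library. Members called lower numbered 10, but 6 on library totals without TMM, 5 in each limma fit that required a mean of 1 FPKM (log2 of FPKM + 1 or FPKM + 0.1), and 3 in limma without a filter. Over all genes, lower calls went from 2131 to 1629, 1267, 1254 and 1246 in the same fits. With 1 library left out, 5 to 6 were higher and 5 to 9 lower, with 6 lower without KO replicate 3 and 5 without WT replicate 3. With the replicate number as a block, 6 were higher and 9 lower. Over all genes, libraries of the same number did not deviate together (correlations of -0.05, -0.01 and 0.01), nor did those of different number (-0.03 to 0.04). With 3 libraries per group, a link confined to some genes could be missed. Whether the numbers mark a shared animal, litter or day therefore stays unknown. With the block, the Rictor to Rptor log2 difference was 0.57 (exact sign-flip test, p = 0.25, the smallest that 3 pairs allow). Among uncalled members 5 changed sign, all near 0. On library totals, in limma with + 1, in limma with + 0.1 and in limma without a filter, the log2 change was 0.02901, 0.02322, 0.02868 and 0.02322 for Phlpp1, 0.04193, 0.03403, 0.04113 and 0.03403 for Rptor, 0.01874, 0.02122, 0.02199 and 0.02122 for Gsk3a, and 0.0369, 0.03365, 0.03689 and 0.03365 for Gsk3b. Rptor was at 0.00382 without a count filter. Leaving out 1 library gave -0.06293 to 0.02849 for Phlpp1, -0.03896 to 0.01931 for Rptor, -0.02968 to 0.06528 for Rps6kb1, -0.0768 to 0.03265 for Gsk3a and -0.04122 to 0.006047 for Gsk3b. It gave log2 ratios of -0.03031 to 0.05862 for Pik3r1 to Pik3r2 and -0.06532 to 0.06744 for Gsk3b to Gsk3a. Among the lists, library totals called 5 other mTOR genes, 12 insulin adaptors and brakes and 28 KEGG insulin genes higher. Library totals and the fit without a count filter each called 3 amino-acid arm genes lower. The limma fits with a mean of 1 FPKM called 5, 10 and 26 of the first 3 lists higher and 3 amino-acid arm genes lower. They called 3 other PI3K genes higher and 1 lower, 1 endothelial and 0 adipocyte markers lower, and 9 (+ 1) or 8 (+ 0.1) KEGG insulin genes lower. Limma without a filter called 3 other mTOR, 3 amino-acid arm, 17 KEGG mTOR and 7 KEGG insulin genes lower. It called 0 skeletal muscle markers lower, as did limma with + 0.1. With 1 library left out, 0 to 2 skeletal muscle markers, 4 to 7 other mTOR genes (4 without KO replicate 1 or WT replicate 2) and 3 to 5 amino-acid arm genes (3 without KO replicate 1 or 3 or WT replicate 2 or 3) were lower. Each fit tests a different set of genes where its filter differs, and the other causes were not tested. The lowest count of a member was 208, and the members of lowest CPM had the largest SEs (0.16 for Inpp4b, 0.15 for Pik3cd and 0.14 for Pik3cb, against 0.02 for Akt1), so small changes in them were less detectable.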
